A study of Mus musculus with 4 samples.

Results

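The growth hormone, STAT5 and IGF axis was followed through 10 genes in the liver of F1 hybrid mice. The genes were picked by name for their known roles and not by a rule on measured values, though earlier results of these data were known. They are Ghr, Jak2, Stat5a, Stat5b, Socs2, Igf1, Igfals, Igfbp1, Igfbp2 and Igfbp4. All 10 were among the 8797 genes with an expression value, and 5 of them were among the 3632 genes with a B6-allele frequency. The livers came from 4 female mice at 5 months of age. In the 2 MB mice the mother was MSM (MSM/Ms, a strain from Mus musculus molossinus) and the father B6 (C57BL/6J), and in the 2 BM mice the mother was B6 and the father MSM. All 4 mice thus had the same autosomal genotype, 1 chromosome set of each strain, and the labels give no treatment. Expression is given in FPKM (fragments scaled to transcript length and to the size of the library), so that levels can be compared between genes. The B6-allele frequency is the fraction of allele-assigned reads of a gene that came from the B6 allele, and 0.5 means equal use of both alleles.

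Growth hormone from the pituitary binds its receptor on hepatocytes, which activates the kinase JAK2 bound to it, and JAK2 phosphorylates the transcription factors STAT5A and STAT5B. In the liver these factors drive the genes of the secreted hormone IGF1 and of IGFALS, the subunit that holds IGF1 in a stable complex in blood, and also Socs2 and Cish, whose products dampen the same signal. IGF-binding proteins carry IGF1 and limit its access to receptors, and hepatic Igfbp1 is known to be repressed by insulin.

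STAT5 dimers bind palindromes of the form TTCNNNGAA, and the promoters of the axis were searched for these letters to show where such a palindrome lies. RefSeq promoter sequences of the GRCm38.p6 build, from 250 bases before to 50 bases after an annotated start, covered 9 of the 10 genes (all but Socs2) with 15 promoters. The palindrome reads the same on both strands. It was in 2 of these 15 promoters, both of Igfals, and in 8.3% of all 32851 promoters in the table. Of the other pathway genes described further on, 7 of 38 genes with a promoter had a match, where 2582 of 27025 genes in the whole table had one. Among them Bcl6, a repressor gene, had a promoter with 3 matches and another with 1, and Cish had a promoter with 2. At least 2 matches were found in 0.457% of all promoters. The matching stretches of Igfals, the only gene of the axis with a match, and of Cish, whose level followed that of Socs2, are shown on their coding strand, with the palindromes in capitals. A match is a description of the letters and not a measured binding site.
Igfals, first promoter, chr17:24877598-24877626, plus strand: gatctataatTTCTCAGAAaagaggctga
Igfals, second promoter, chr17:24878163-24878191, plus strand: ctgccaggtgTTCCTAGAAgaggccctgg
Cish, chr9:107296649-107296688, plus strand: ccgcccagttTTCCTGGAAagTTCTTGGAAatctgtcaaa
In the first Igfals promoter the palindrome began 236 bases before the annotated start, and in the second 58 bases before it. Another Igfals promoter had no match. In Cish the palindromes were not upstream, since the first began at the annotated start.

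The depth behind each value is unknown, since the tables used here hold only FPKM and frequencies. FPKM summed over the 8797 genes ranged from 529024 to 671875 per mouse, and the highest sum was that of MB replicate 1, in which Mir3470a alone was listed at 47024.5. The other 3 mice had this gene at 0, and the median ratio of each mouse to the geometric mean over genes lay between 0.988 and 1.025. The hepatocyte markers Ttr, Apoa1 and Apob had mean FPKM of at least 495.9. A value of 0 in these tables can be a failed estimate, because Cyp2e1, a cytochrome P450 abundant in liver, was listed at 0 in both MB mice although it had B6-allele frequencies of 0.516 and 0.546 there. None of the 10 genes was listed at 0. Of 18 marker genes of other liver cell types, 10 were listed and their summed FPKM was 315 and 276 in the MB mice and 314 and 323 in the BM mice. Of these 10 markers, 6 were higher in both BM mice and 1 in both MB mice, where all genes gave 19.4% and 23.0%. The cholangiocyte markers Krt19, Krt7 and Epcam, the pan-leukocyte marker Ptprc and the hepatocyte marker Alb were not among the genes listed. In whole liver, fewer cells of a type and less RNA per cell cannot be told apart.

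The 10 genes spanned more than 2 orders of magnitude, and the binding protein genes Igfbp4 and Igfbp2 were at the top. Igfbp4, a binding protein for both IGF1 and IGF2, had a mean of 1036 FPKM ± 78.0 (SD, n = 4 mice), and Igfbp2, a major binding protein of the circulation, had 515 ± 144. The receptor gene Ghr followed at 231 ± 30.3 and Igf1 at 194 ± 28.0. These neighbours in the order did not separate, since the ranges of Ghr and Igf1 overlapped and Igf1 was the higher of the pair in 1 mouse by less than the rounding. Igfals had 117 ± 8.58 FPKM, and every mouse had less of it than of Igf1. Below them stood Igfbp1 at 34.6 ± 15.3, Socs2 at 23.3 ± 12.1 and Stat5b at 16.7 ± 2.57, whose ranges overlapped from neighbour to neighbour. Stat5a at 5.07 ± 0.831 and the kinase gene Jak2 at 4.54 ± 0.318 were lowest. Stat5a was above Jak2 in all 4 mice, but only by 1.01-fold to 1.21-fold, and their ranges overlapped.

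**Figure D1:**
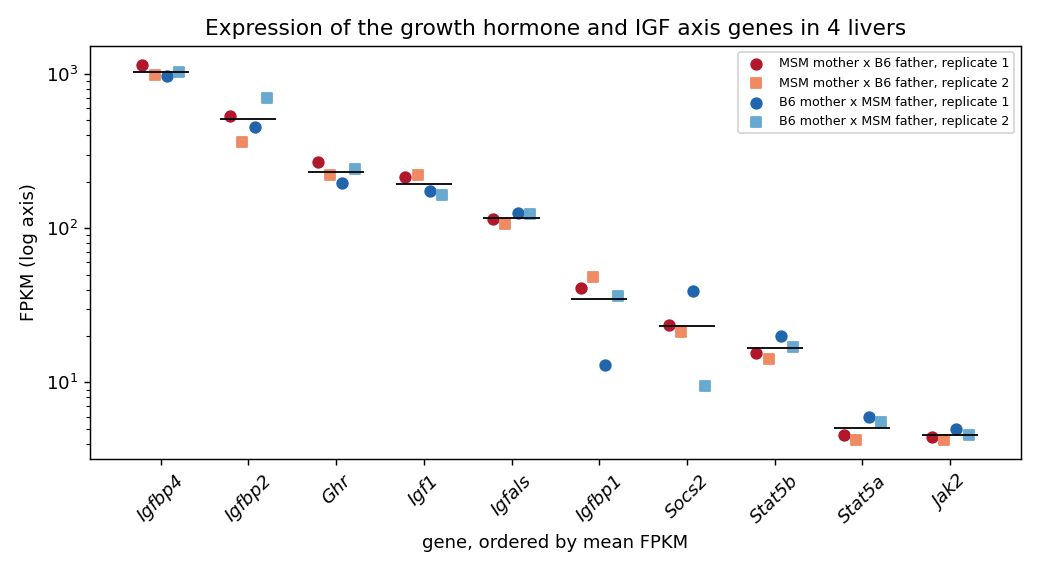
FPKM (vertical log axis) of the 10 genes in each of the 4 mice (red for MB, blue for BM, circles for replicate 1, squares for replicate 2), with the mean over mice as a line. Igfbp1 and Socs2 spread 3.74-fold and 4.13-fold over the mice, while Igfbp4, Igfals and Jak2 spread 1.18-fold each.

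Starting with the receptor, Ghr was at 267 and 221 FPKM in the MB mice and at 196 and 241 in the BM mice. The crosses overlapped. The kinase gene Jak2 was at 4.45 and 4.21 in the MB mice and at 4.97 and 4.54 in the BM mice, so that the FPKM of Ghr was at least 39.5 times that of Jak2 in every mouse. Its values did not overlap between the crosses, but they lay within a 1.18-fold range.

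Stat5b was the more abundant of the STAT5 pair, and the pair kept a nearly fixed proportion. Stat5b had 15.6 and 14.1 FPKM in the MB mice and 20.1 and 16.9 in the BM mice. Stat5a had 4.53 and 4.23 in the MB mice and 6.01 and 5.51 in the BM mice. In both genes each BM mouse was above each MB mouse, and BM replicate 1 was the highest. The ratio of Stat5b to Stat5a was 3.44, 3.32, 3.34 and 3.07 in the 4 mice (3.30 ± 0.157), a narrower range than that of either gene. The products of these genes are close paralogs, and the authors' alignment kept a single position per read, so how reads of shared stretches fell between them was not measured. Of 6 markers of Kupffer and other immune cells, 3 were listed (Clec4f, Cd5l and Vsig4). All 3 were higher in both BM mice, as were 19.4% of all genes. Their summed FPKM was 104 and 95.4 in the MB mice and 133 and 126 in the BM mice. Of 4 endothelial markers, Stab2, Kdr and Pecam1 were also higher in both BM mice, and the list summed to 102 and 90.95 in the MB mice and 104 and 111 in the BM mice. Dcn, a marker of stellate cells and fibroblasts, went the other way, at 88.9 and 73.7 in the MB mice and 58.7 and 67.5 in the BM mice. The part of these cell types in the STAT5 values was not tested.

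Socs2, a feedback inhibitor of growth hormone signaling, had the widest range between mice among the axis genes, although Igfbp1 had the larger SD of log2(FPKM + 1), 0.8224 beside 0.8001. It was at 23.5 and 21.1 FPKM in the MB mice, which lay close together. In the BM mice it was at 39.0 in replicate 1 and at 9.44 in replicate 2. Both the highest and the lowest value were thus from the same cross, a 4.13-fold range that was exceeded by 0.776% of all genes, where the median range was 1.29-fold. Over the 4 mice, the gene with the pattern most like that of Socs2 was Cish, by the root mean square difference in log2(FPKM + 1) after each gene's mean was removed, which was 0.176 and the smallest among 8796 genes. Cish, another STAT5-induced inhibitor of the same family, was at 9.28 and 9.18 in the MB mice and at 15.4 and 4.84 in the BM mice. The ratio of Socs2 to Cish was 2.53, 2.30, 2.53 and 1.95. Next were Lad1 at a difference of 0.319 and Cyp26b1 at 0.332. With 4 mice such likeness is a description and no test was made.

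**Figure D2:**
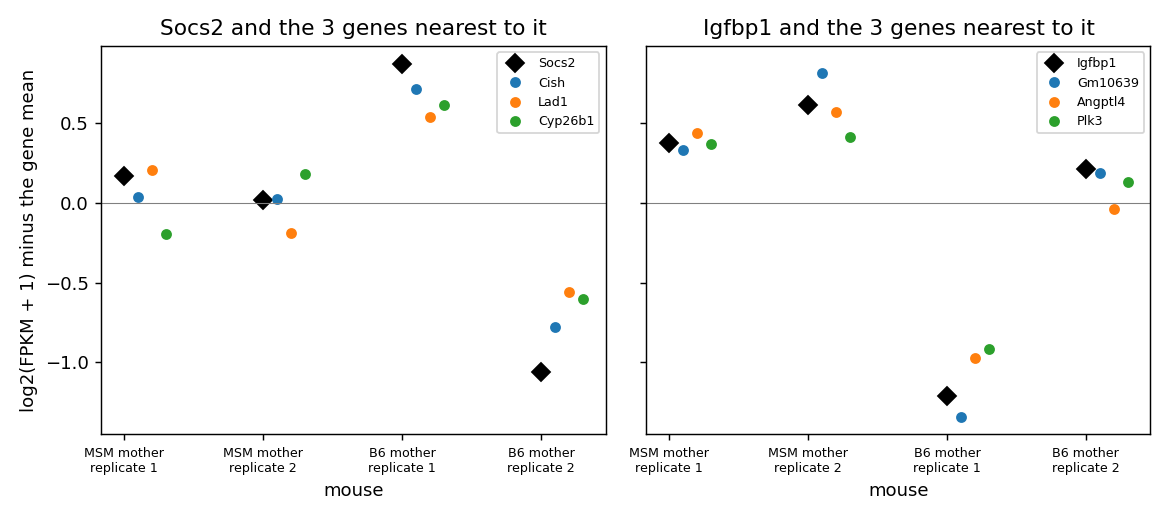
Deviation of log2(FPKM + 1) from the gene's own mean (vertical axis) in each mouse for Socs2 and Igfbp1 (diamonds) and the 3 genes nearest to each (circles). Socs2 and Cish were highest in BM replicate 1 and lowest in BM replicate 2, and Igfbp1 and its nearest genes were lowest in BM replicate 1.

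Igf1, the growth factor itself, was at 215 and 221 FPKM in the MB mice and at 175 and 165 in the BM mice. The crosses did not overlap, and within each cross the mice differed by far less than the crosses did. Igfals, whose product binds IGF1 in blood, lay in the opposite order, at 115 and 106 in the MB mice and at 125 and 123 in the BM mice. The ratio of Igf1 to Igfals was accordingly 1.88 and 2.08 in the MB mice and 1.40 and 1.35 in the BM mice. Igf1 and Igfals are both known growth hormone targets, yet neither had the pattern of Socs2, and their full ranges over the mice were 1.34-fold and 1.18-fold.

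Among the binding proteins, Igfbp1 stood out by its spread. It was at 40.8 and 48.3 FPKM in the MB mice, and at 12.9 and 36.3 in the BM mice, where replicate 1 was far below the other 3 mice. This mouse was the one with the highest Socs2. The range of 3.74-fold was exceeded by 0.924% of all genes. Of 8796 genes, those nearest to it in pattern were Gm10639 at a root mean square difference of 0.121, Angptl4 at 0.176 and Plk3 at 0.182. Angptl4, an inhibitor of lipoprotein lipase that rises in fasting, was at 127 and 139 in the MB mice and at 46.9 and 90.7 in the BM mice. Of 11 genes known to respond to fasting or feeding, 8 were listed, and 4 of them were higher in both MB mice and 2 in both BM mice, where all genes gave 23.0% and 19.4%. Pck1, the gene of a gluconeogenic enzyme raised in fasting, was at 990 and 2045 in the MB mice and at 405 and 852 in the BM mice. Of 8 clock genes listed, Ciart was at 3.85 and 24.5 in the MB mice and at 0.585 and 4.51 in the BM mice, and Per1 was at 5.17 and 14.3 in the MB mice and at 1.90 and 5.53 in the BM mice. Like Igfbp1, both were lowest in BM replicate 1. Not every clock gene was: Per2 was lowest in MB replicate 1, at 1.44, and Nr1d1 was highest in BM replicate 1, at 66.7. Feeding state and time of killing are not given in the labels, and their part in the Igfbp1 values was not tested.
Igfbp2 was at 534 and 365 FPKM in the MB mice and at 455 and 704 in the BM mice, so the crosses overlapped. Igfbp4 was steady, at 1149 and 991 in the MB mice and at 978 and 1025 in the BM mice. The ratio of Igfbp4 to Igfbp2 ranged from 1.46 to 2.71.

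The reciprocal crosses were compared to ask whether the strain of the mother changes expression. None of the 10 genes passed this test (limma on log2(FPKM + 1), Benjamini-Hochberg adjusted over 8797 genes at 0.05), and over all genes 0.0455% passed. Those 4 genes include Cyp2e1, which was listed at 0 in both MB mice, where a 0 can be a failed estimate. At an unadjusted p under 0.05, 1 of the 10 genes was found, Stat5a, against 8.87% of all genes. On the log2(FPKM + 1) scale, which understates the change of low genes, the difference of MB minus BM was -0.33 for Stat5a (SE 0.11, limma adjusted p = 0.525) and -0.30 for Stat5b (SE 0.13, limma adjusted p = 0.578). It was 0.36 for Igf1 (SE 0.15, limma adjusted p = 0.567) and 0.99 for Igfbp1 (SE 0.44, limma adjusted p = 0.578). With a mouse left out, the Igfbp1 difference ranged from 0.28 (without BM replicate 1) to 1.71 (without BM replicate 2). The median over the 10 genes was -0.01, and over all genes it was 0.02. Values without overlap between the crosses were found in Igf1 and Igfbp1 with MB higher, 2 of 10 where all genes gave 23.0%, and in Stat5a, Stat5b, Jak2 and Igfals with BM higher, 4 of 10 where all genes gave 19.4%. An exact permutation test of 2 mice against 2 cannot give a two-sided p below 0.333, which was the value for each of these 6 genes.

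A B6-allele frequency was given for 5 genes of the axis, and their positions on the chromosomes (GENCODE M21 on mm10) matter for it. Over the listed genes with a position, 89.8% of those beyond 100 Mb (10 Mb on chromosomes 16 to 19) had a frequency and 1.88% of those below. Jak2 (chr19:29251828-29313080), Stat5a (chr11:100859351-100885169) and Stat5b (chr11:100780731-100850724) lay beyond, and each had a frequency. Ghr (chr15:3317760-3583492), Igf1 (chr10:87858265-87937042), Socs2 (chr10:95385362-95417180) and Igfbp1 (chr11:7197782-7202546) lay below and had none. Igfals (chr17:24865997-24882010) lay beyond but had none, while 14 of its 34 listed neighbours within 500 kb had one. Igfbp2 (chr1:72824503-72852474) and Igfbp4 (chr11:99041244-99054392) lay below and nevertheless had a frequency. On chromosome 11 the change was abrupt: 1 of 48 listed genes between 95 and 100 Mb had a frequency, and all 65 in the 5 Mb after that. The start of Igfbp4 is 1809 kb before that of Stat5b, across this boundary.

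Of the 5 axis genes with a frequency, Stat5a was the 1 gene called for unequal allele use, with more of its reads from the B6 allele. Its B6-allele frequency was 0.665 and 0.573 in the MB mice and 0.571 and 0.577 in the BM mice, above 0.5 in 4 of 4 mice. The mean was 0.596 ± 0.0457 (SD, n = 4), with a ratio of B6 to MSM reads of 1.48 on the log odds scale (log2 odds 0.57, SE 0.12, limma adjusted p = 0.0398). Without MB replicate 1, the mouse at 0.665, the adjusted p was 0.058 in limma, and it was 0.16 and 0.168 without BM replicate 1 or 2. The bias thus had the same direction in each mouse but was close to the threshold.
Stat5b was also above 0.5 in each mouse, with frequencies of 0.522, 0.523, 0.519 and 0.524. Its SD of 0.00227 ranked 3614 of 3632 genes from the largest. Its log2 odds of 0.13 (SE 0.04) gave a limma adjusted p of 0.0962. Stat5a was above Stat5b in each of the 4 mice, by 0.143, 0.0496, 0.0519 and 0.0527. An exact paired permutation test of this difference gave a two-sided p of 0.125, the smallest that 4 mice allow. Jak2 was at 0.478, 0.539, 0.508 and 0.48, on both sides of 0.5, with a log2 odds of 0.01 (SE 0.09, limma adjusted p = 0.947).
Of the 5 genes with a frequency, 1 was called toward the B6 allele, where all genes gave 22.6%, and none was called toward the MSM allele, where all genes gave 13.6%. None of the 5 had a mean frequency of at least 0.8 or at most 0.2, the limits the study used for allele-biased genes, which 3.19% of all genes passed.

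**Figure D3:**
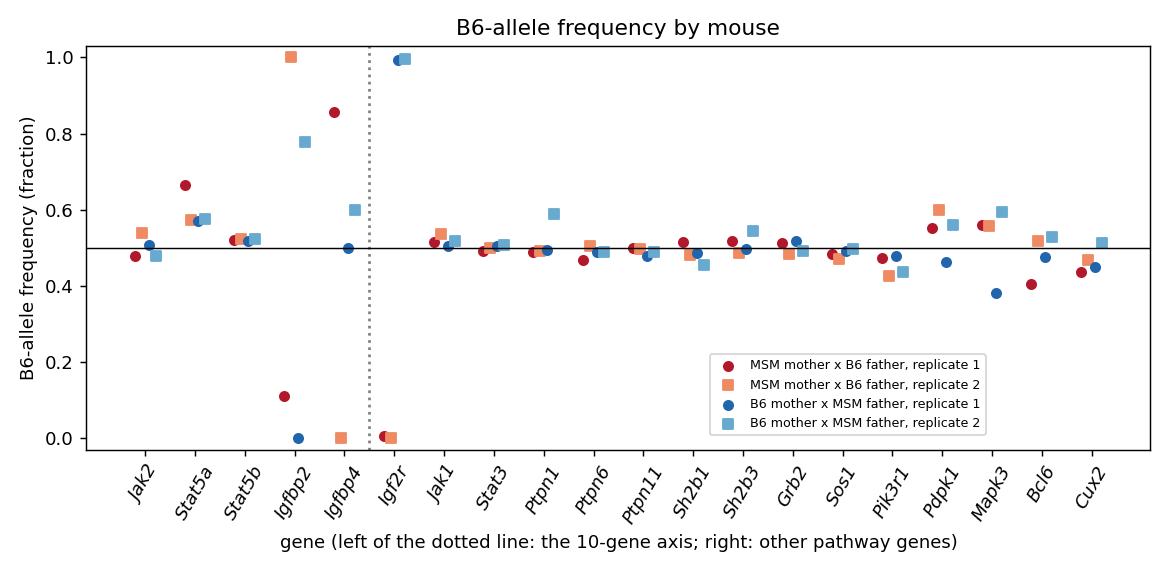
B6-allele frequency (vertical axis, fraction from 0 to 1) in each of the 4 mice for the 5 axis genes with a frequency (left of the dotted line) and other pathway genes (right of it), with 0.5 as a horizontal line. Igfbp2 and Igfbp4 scatter over most of the axis from mouse to mouse, while Stat5b lies between 0.519 and 0.524.

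Igfbp2 and Igfbp4, the most abundant transcripts of the axis, had the least repeatable frequencies. Igfbp2 was at 0.111 and 1 in the MB mice and at 0 and 0.778 in the BM mice. Igfbp4 was at 0.857 and 0 in the MB mice and at 0.5 and 0.6 in the BM mice. In both genes the MB mice thus lay toward opposite ends of the scale, and in Igfbp2 the BM mice were also far apart. The SD over the 4 mice was 0.492 for Igfbp2 and 0.359 for Igfbp4, ranks 9 and 37 from the largest among 3632 genes, where the median was 0.0272. The median SD was 0.298 over the 91 genes with a frequency below 100 Mb (10 Mb on chromosomes 16 to 19) and 0.0266 over the 3522 beyond. High FPKM did not make these frequencies precise, and how many allele-assigned reads lie behind them is not known. Their log2 odds of -0.30 (SE 2.48) and -0.86 (SE 1.79) leave the direction of any bias undetermined (limma adjusted p = 0.933 and 0.728).

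None of the 5 genes differed in frequency between the reciprocal crosses (limma with Benjamini-Hochberg adjustment), and none had an unadjusted p under 0.05. Over all genes, 0.0826% passed. The difference in log2 odds, MB minus BM, was 0.28 for Stat5a (SE 0.23, limma adjusted p = 0.91) and 0.01 for Stat5b (SE 0.08, limma adjusted p = 1). For Igfbp2 it was 4.23 with an SE of 4.96, so that a large difference would not have been detectable.

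Stat5a and Stat5b lie head to head, with 8.63 kb between their start sites, and Stat3, a related STAT gene activated by interleukin-6 in liver, starts 80.2 kb beyond Stat5a. Stat3 had B6-allele frequencies of 0.493, 0.501, 0.504 and 0.508, with a mean of 0.501 ± 0.00649. Within 500 kb of the start of Stat5b, all 24 other listed genes had a frequency, with a median of 0.513 and a range of 0.442 to 0.830. Of these 24 genes, 7 were called toward B6, Stat5a among them, and 2 toward MSM, where all genes gave 22.6% and 13.6%. The nearest on the other side of Stat5b were Ghdc at 0.453 ± 0.0217 (limma adjusted p = 0.027), Rab5c at 0.511 ± 0.0244 and Kat2a at 0.544 ± 0.00697 (limma adjusted p = 0.0283), and beyond Stat3 they were Ptrf at 0.490 ± 0.0104 and Atp6v0a1 at 0.498 ± 0.0119. Around Jak2, all 8 listed neighbours within 500 kb had a frequency, with a median of 0.546, and 4 were called toward B6. The nearest were Rcl1 at 0.530 ± 0.0152, Ak3 at 0.648 ± 0.00686 and 1700018L02Rik at 0.825 ± 0.107 on one side, and Plgrkt at 0.495 ± 0.0512, C030046E11Rik at 0.528 ± 0.0366 and Ermp1 at 0.563 ± 0.0309 on the other. Ak3, 1700018L02Rik and Ermp1 were among those called.

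**Figure D4:**
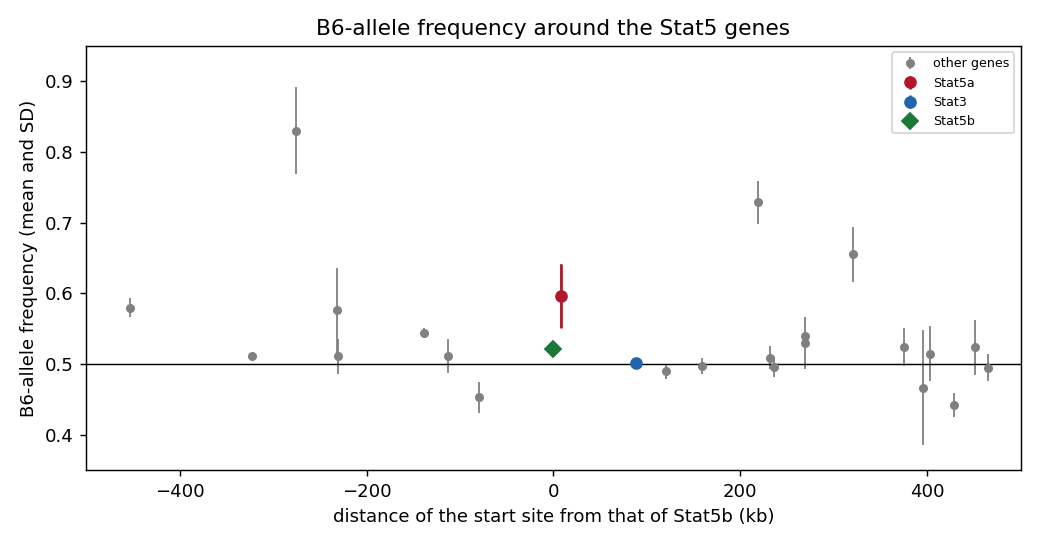
Mean B6-allele frequency over the 4 mice (vertical axis, bars show the SD) against the distance of each gene's start site from that of Stat5b in kb. Stat5a (0.596) lies above its immediate neighbours Stat5b (0.522) and Stat3 (0.501), and genes of either direction are interspersed.

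Other genes of the pathway were taken from a list of 44, of which 34 were listed here and 16 had a frequency. None of the 34 differed in FPKM between the crosses and none of the 16 differed from equal allele use (limma with Benjamini-Hochberg adjustment), while 5 of the 34 had an unadjusted p under 0.05 between the crosses, beside 8.87% of all genes. The genes of the IGF1 receptor (Igf1r) and of the ligand IGF2 were among the 10 not listed. Mean frequencies ranged from 0.454 to 0.544. The kinase gene Jak1 was at 0.519 ± 0.0129. The phosphatase genes Ptpn1, Ptpn6 and Ptpn11 and the adaptor genes Sh2b1, Sh2b3 and Grb2 had frequencies on both sides of 0.5, as did the kinase genes Pdpk1 and Mapk3 and the repressor genes Bcl6 and Cux2. Sos1, which activates RAS, was at 0.486 ± 0.0119. Pik3r1, the regulatory subunit of PI 3-kinase, had the lowest mean, 0.454 ± 0.0262 (limma adjusted p = 0.0884), and was below 0.5 in 4 of 4 mice. Igf2r, the imprinted receptor that clears IGF2, was the 1 gene of the list whose frequency differed between the crosses, at 0.00554 and 0.00134 in the MB mice and 0.992 and 0.997 in the BM mice. Its mean of 0.499 over the crosses therefore hides near-complete use of the maternal allele in every mouse. Irs2, an adaptor of insulin and IGF1 receptors, had 2.54 and 2.56 FPKM in the MB mice and 7.60 and 7.03 in the BM mice, a log2 difference of -1.23 (SE 0.11, limma adjusted p = 0.0826). Prlr, the receptor for prolactin, was at 165.5 ± 25.6 FPKM, and the ratio of Ghr to Prlr ranged from 1.00 to 1.99.

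The sex pattern of pituitary growth hormone release is known to set sex-biased genes of the mouse liver, and lists of these targets were read in the same mice, all female. All 24 genes of the female-biased list were listed. The highest were Cyp3a41a at 1120 ± 239 FPKM and Cyp3a41b at 1005 ± 211, and the lowest were Tox at 2.81 ± 0.529 and Nipal1 at 5.31 ± 1.97. Of 20 male-biased genes, 15 were listed, the highest being Mup1, a major urinary protein, at 1489 ± 556 and Gstp1 at 259.7 ± 49.1, and the lowest Bcl6 at 2.58 ± 0.455 and Mup21 at 8.98 ± 3.63. The presence of male-biased genes here has no male samples to be set against. No gene of either list differed in FPKM between the crosses (limma with Benjamini-Hochberg adjustment), while 5 of 24 female-biased and 3 of 15 male-biased genes had an unadjusted p under 0.05, beside 8.87% of all genes. A1bg, a female-biased secreted protein, was at 1889 FPKM in BM replicate 1 and between 369 and 433 in the other mice, and that mouse also had the highest Socs2. Genes of the female-biased list went both ways in BM replicate 1: Cyp3a44 was highest there, at 561 FPKM, and Cyp2b13 lowest, at 18.5. Whether any of them follows Socs2 was not tested.

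A frequency was given for 13 female-biased genes, of which 2 were called toward B6 and 5 toward MSM, where all genes gave 22.6% and 13.6%. Their median frequency was 0.378 beside 0.510 over all genes. For 6 male-biased genes, 1 was called toward B6 and 3 toward MSM, with a median of 0.294. The calls toward the MSM allele in the female-biased list included Cyp2c39 at 0.0281 ± 0.00256 (limma adjusted p = 4.36e-04), Cyp3a41a at 0.0648 ± 0.0167 (limma adjusted p = 3.0e-04), Cyp3a41b at 0.281 ± 0.0731 and Cyp2c69 at 0.284 ± 0.0287. Toward B6 they were Cyp17a1, a steroid hydroxylase gene, at 0.882 ± 0.0284 (limma adjusted p = 0.0023) and the fatty acid hydroxylase gene Cyp4a14 at 0.992 ± 0.00334 (limma adjusted p = 1.93e-04). In the male-biased list, Cyp4a12b at 0.00912 ± 0.00368, Susd4 at 0.0978 ± 0.0277 and Cyp4a12a at 0.106 ± 0.0540 were called toward MSM, and the organic anion transporter gene Slco1a1 at 0.650 ± 0.0475 toward B6. With a mouse left out, Cyp2c69 (limma adjusted p up to 0.054) and Cyp4a12a (up to 0.0759) lost their calls without either BM mouse. Slco1a1 lost its call without either MB mouse or BM replicate 2 (limma adjusted p up to 0.111). Cyp and Mup genes have near-identical copies, and reads that match several copies make both their FPKM and their frequencies uncertain. Whether these lists differ from the axis in their share of calls was not tested.

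**Figure D5:**
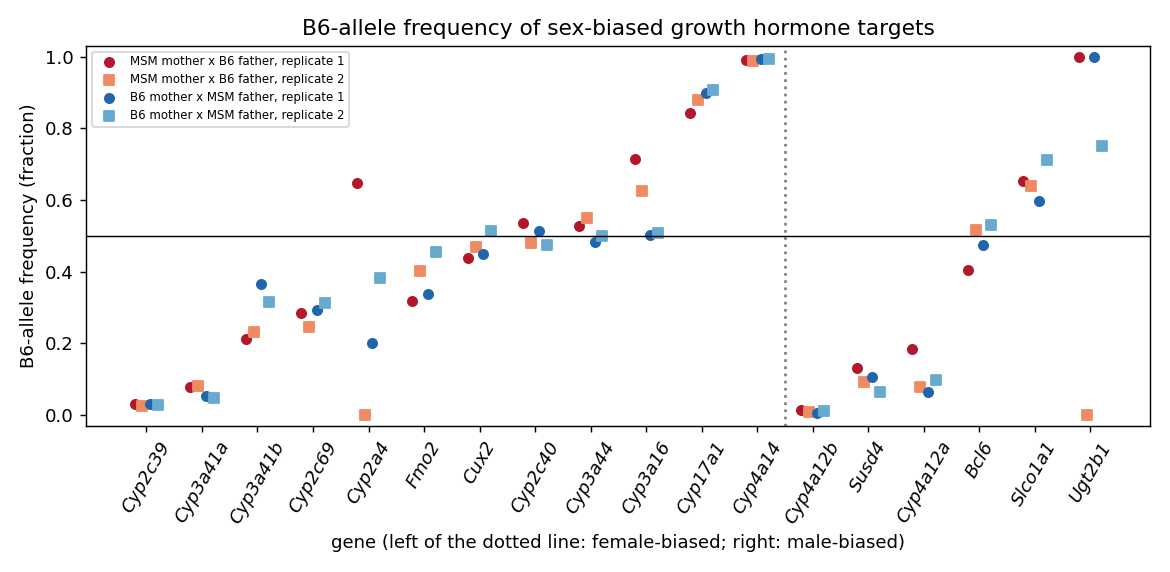
B6-allele frequency (vertical axis, fraction) in each of the 4 mice for female-biased (left of the dotted line) and male-biased (right of it) growth hormone targets, with 0.5 as a horizontal line. Cyp2c39, Cyp3a41a and Cyp4a12b lie near 0 and Cyp4a14 near 1 in every mouse, while Cyp2a4 and Ugt2b1 scatter between mice.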

How the data were processed

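Livers of 4 mice were measured by mRNA-seq. According to the study's methods, the authors used Trim Galore! for trimming, Tophat2 for alignment to an mm10 genome with SNP bases masked, SNPsplit to assign reads to alleles and Cuffdiff to count them, and tool versions are not given in the sources used here. The authors deposited an FPKM value per gene and mouse, and how it was scaled is not given in the sources used here. The authors deposited the B6-allele frequency as a fraction, the B6 reads divided by the B6 and MSM reads. Depth per gene is unknown, so no counting interval was computed.

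Analyses used R 4.3.3 with limma 3.58.1 (Benjamini-Hochberg adjustment, threshold 0.05) and Python 3.11.15 with scipy 1.17.1. They were tested on simulated data with log2 effects of 2 for allele use and for FPKM between crosses, and 6 for frequency between crosses. Effects as small as those of Stat5a were not simulated. The limma trend option was used for FPKM and not for frequencies. FPKM of all 8797 genes (mean of at least 1) was taken as log2(FPKM + 1). Frequencies of 3632 genes, limited to 0.01 and 0.99, were taken as log2 odds and tested against equal use and between the crosses in 1 model. Both crosses entered each fit, so they share 1 estimate of the spread between these mice. For each gene, limma moderates this estimate toward the spread of all genes tested, so SEs and p-values rest on both. For a gene whose mice are nearly equal, such as Stat5b in frequency, the SE is largely set by the other genes. Single values were compared by exact permutation tests. No source says that a replicate number marks a shared litter, batch or day, so the number was not in the model.

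The axis genes and all lists were chosen with earlier results of these data known. Named are the axis genes, pathway genes with a frequency, listed genes past a threshold, the 2 highest and 2 lowest targets per list, up to 3 neighbours per side within 500 kb, and the 3 genes nearest in pattern to the 2 most variable axis genes. Irs2, Prlr, A1bg, Cyp3a44, Cyp2b13, Dcn, Pck1, Ciart, Per1, Per2, Nr1d1 and Mir3470a were named after their values were seen. Some genes that this rule names are counted in their lists but not reported here by name or drawn. Alternatives were the pseudocount, the limits and scale of the frequency, a mean FPKM of at least 5, centring or scaling of each mouse, quantile normalization, a replicate block and leaving out each mouse. Positions are those of GENCODE M21 and promoters those of RefSeq.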

Additional observations from a re-analysis of the deposited data

Results flagged for a closer look

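Igf2r, the receptor that clears IGF2, was singled out because its B6-allele frequency differed between the reciprocal crosses in a test of that difference. The log2 odds, MB (MSM mother) minus BM (B6 mother), differed by -13.26 (SE 0.08, limma adjusted p = 4.77e-04), which is set by the limits of 0.01 and 0.99 since all 4 mice lay beyond them. The frequency was 0.00554 and 0.00134 in the MB mice and 0.992 and 0.997 in the BM mice, while its FPKM overlapped, at 7.09 and 9.07 in the MB mice and 8.44 and 7.55 in the BM mice. Without MB replicate 2 or BM replicate 2 the limma adjusted p was 0.0561 and 0.0501. It is a known imprinted gene expressed from the maternal allele.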

How the results depend on the processing

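Each cross held 2 mice and read depth is unknown. Of the main values across the alternative settings, 106 kept their side and 12 moved. The 106 include the mean FPKM of each of the 10 axis genes after scaling of each mouse, which answers no comparison. Among the axis genes, the number called for unequal allele use, 1 in the main analysis, ranged from 0 to 1 with a mouse left out, where a lone mouse is assumed to vary like the other cross. For female-biased targets it was 7 and ranged from 5 to 8, and for male-biased targets it was 4 and ranged from 2 to 3. Between the crosses, the number of pathway genes differing in frequency ranged from 0 to 1, and of female-biased targets differing in FPKM from 0 to 1. Wider limits on the frequency (0.001 from either end) left 0 pathway genes differing in frequency, with Igf2r at -16.36 (limma adjusted p = 0.223). Same-numbered mice deviated together with r = 0.0038 for log2(FPKM + 1) and 0.15 for log2 odds over genes, in 2 pairs only. An r over all genes from 2 pairs cannot decide whether a number marks a shared litter, batch or day. With that number as a replicate block, 0 axis genes were called for allele use (Stat5a, limma adjusted p = 0.0765). In FPKM between the crosses, the block gave 1 axis gene (Igfbp1, log2 difference 0.99, limma adjusted p = 8.84e-04), 5 pathway genes, 4 female-biased and 2 male-biased targets, where the main analysis gave 0 in each. The block leaves little freedom to estimate the spread of a gene, so these calls rest mostly on the spread of other genes. In Igfbp1 the pairs were unlike, with MB and BM at 40.8 and 12.9 FPKM in replicate 1 and at 48.3 and 36.3 in replicate 2. Directions turned only in values that were not called: Jak2 allele use was -0.048 with each mouse centred, and the Igfbp4 FPKM difference was -0.041 after quantile normalization. With a mouse left out, log2 odds against equal use ranged from -0.081 to 0.097 for Jak2, -2.71 to 2.11 for Igfbp2 and -3.17 to 1.44 for Igfbp4, which was called without MB replicate 1 (limma adjusted p = 0.0392). Between the crosses they ranged from -0.095 to 0.26 for Jak2, -0.0055 to 0.56 for Stat5a, -0.0080 to 0.022 for Stat5b, -0.59 to 9.04 for Igfbp2 and -6.92 to 2.29 for Igfbp4, and log2 FPKM differences from -0.78 to 1.16 for Socs2 and -0.014 to 0.20 for Igfbp4.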
